A study of Mus musculus with 2 samples.

Results

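Replication-dependent histone genes were measured in the newborn mouse heart. They were taken as the protein-coding genes whose symbols begin with Hist1h, Hist2h, Hist3h or Hist4h, which gave 67 of the 21901 protein-coding genes and of the 55536 mouse genes in the deposited tables. By class they were 6 linker histone H1 genes, 18 H2A genes, 18 H2B genes, 12 H3 genes and 13 H4 genes. The Hist1 cluster on chromosome 13 held 54 of them, the Hist2 cluster on chromosome 3 held 10, Hist3 on chromosome 11 held 2 and Hist4 on chromosome 6 held 1. A further 3 genes with such symbols have no coding transcript and were kept apart.

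Total RNA came from the hearts of male B6CASTF1/J mice, offspring of a C57BL/6J and CAST/EiJ cross, at 4 days of age. There were 2 libraries, replicate 1 and replicate 2, each from 300 ng of RNA depleted of ribosomal RNA, with ERCC spike-ins. The labels give the replicates different animal numbers but 1 donor record, so the spread between them may be technical in part. The RNA was measured against the mm10 assembly, and any effect of the CAST/EiJ alleles on read assignment was not tested. All samples belong to 1 group, with no genotype or treatment compared, so levels and their spread are described and no test between conditions exists.

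Replication-dependent histones package newly made DNA, and their genes are switched on together as cells enter S phase. Their mRNAs carry no introns and no poly(A) tail as a rule. They end in a conserved stem-loop that is bound by SLBP, cut with the help of the U7 small nuclear ribonucleoprotein, and used to destroy the mRNA when DNA synthesis stops. H2A, H2B, H3 and H4 form the nucleosome core, and H1 binds the linker DNA between nucleosomes. Heart muscle cells still divide shortly after birth and mostly leave the cell cycle during the first weeks of life, while fibroblasts, endothelial cells and blood cells of the organ go on dividing. In bulk RNA, fewer cells making a transcript and less transcript per cell cannot be told apart.

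The stem-loop is the feature that sets these mRNAs apart, and it was found in the annotated transcripts by its consensus. It lay after the coding part in 44 of 67 genes. Over all protein-coding genes, 47 of 21901 (0.215%) held it at any position, and 3 of these were outside the histone set. Of the 23 genes without it, 15 have annotated transcripts that end within 2 bases of the stop codon, and 8 have a longer one. The 16-base element began a median of 34 bases after the coding part, with a range of 24 to 61. The following examples show each class and the variant letters, with the stem-loop in capitals, its mm10 position and 5 flanking bases on each side in lower case, from GENCODE M21 transcripts.
Hist1h1c, chr13:23739512-23739527, plus strand: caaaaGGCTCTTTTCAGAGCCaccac
Hist2h2aa2, chr3:96239784-96239799, minus strand: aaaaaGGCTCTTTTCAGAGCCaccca
Hist1h2bg, chr13:23571843-23571858, plus strand: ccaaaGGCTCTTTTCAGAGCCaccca
Hist1h2bb, chr13:23747203-23747218, plus strand: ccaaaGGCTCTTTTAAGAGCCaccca
Hist1h3b, chr13:23752820-23752835, plus strand: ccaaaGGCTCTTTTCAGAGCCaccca
Hist1h3g, chr13:23535889-23535904, plus strand: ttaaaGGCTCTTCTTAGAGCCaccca
Hist1h4h, chr13:23531458-23531473, plus strand: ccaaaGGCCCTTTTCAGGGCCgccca
Hist1h4a, chr13:23760800-23760815, minus strand: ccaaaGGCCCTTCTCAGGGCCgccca
Hist1h4i, chr13:22040966-22040981, minus strand: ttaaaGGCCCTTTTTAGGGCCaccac
The stem differed by class. All 10 H4 stem-loops opened with GGCCC, and all 34 stem-loops of the other classes opened with GGCTC. The commonest form was that of Hist1h1c, carried by 26 genes, followed by that of Hist1h4h in 7 genes and that of Hist1h2bb in 6. Downstream of the stem-loop the annotated transcripts differed widely in length. In 22 genes at most 100 bases follow it, and in the other 22 over 100 follow, up to 4884 in Hist1h1d. The lengths run on across that limit, with 74 bases in Hist1h3c and 108 in Hist1h4a, so it does not mark 2 separate forms. Longer forms of some replication-dependent histone mRNAs are known to be polyadenylated in differentiated cells. The levels below are per base of annotated transcript, so the same number of reads gives a lower level over a longer model.

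The promoters were read as RefSeq windows of 250 bases before and 50 bases after each start, which matched 61 of the 67 genes. Windows of an H1, an H2B, an H3 and an H4 gene follow, of which the Hist1h2bg window also holds the start of the H2A gene Hist1h2ae, with matches to the TATA box (TATAA), the CCAAT box (CCAAT), the octamer (ATTTGCAT) and the H1 box (AAACACA) in capitals, on either strand, in GRCm38.p6. They show what the classes share and where they differ.
Hist1h1e, chr13:23622509-23622808, minus strand: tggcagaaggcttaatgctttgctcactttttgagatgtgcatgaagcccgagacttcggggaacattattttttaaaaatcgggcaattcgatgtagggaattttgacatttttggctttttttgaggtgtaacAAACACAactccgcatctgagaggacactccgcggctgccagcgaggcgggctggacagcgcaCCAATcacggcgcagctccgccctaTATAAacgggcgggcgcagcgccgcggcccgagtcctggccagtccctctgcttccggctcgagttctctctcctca
Hist1h2bg, chr13:23571150-23571449, plus strand: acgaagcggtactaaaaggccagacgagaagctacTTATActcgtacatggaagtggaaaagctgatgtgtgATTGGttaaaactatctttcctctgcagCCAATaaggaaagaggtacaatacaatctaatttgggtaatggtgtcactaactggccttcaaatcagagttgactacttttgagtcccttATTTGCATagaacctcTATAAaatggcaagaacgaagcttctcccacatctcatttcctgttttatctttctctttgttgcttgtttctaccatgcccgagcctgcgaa
Hist1h3h, chr13:21717378-21717677, plus strand: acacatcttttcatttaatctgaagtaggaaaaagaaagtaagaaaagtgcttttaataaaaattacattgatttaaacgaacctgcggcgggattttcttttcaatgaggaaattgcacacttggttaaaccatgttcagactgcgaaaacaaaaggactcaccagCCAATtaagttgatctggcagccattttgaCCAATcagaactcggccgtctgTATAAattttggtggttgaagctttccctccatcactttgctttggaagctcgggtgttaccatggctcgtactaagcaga
Hist1h4h, chr13:23530794-23531093, plus strand: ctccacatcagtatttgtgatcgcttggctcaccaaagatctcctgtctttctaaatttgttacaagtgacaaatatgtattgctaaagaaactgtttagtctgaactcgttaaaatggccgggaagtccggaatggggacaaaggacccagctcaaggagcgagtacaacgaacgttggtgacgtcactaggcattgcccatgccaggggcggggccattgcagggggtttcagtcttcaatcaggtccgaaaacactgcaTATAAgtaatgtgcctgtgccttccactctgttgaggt
A TATAA match lay in 48 of 61 windows (78.7%), against 24.9% of all 32851 RefSeq windows of the same length. CCAAT lay in every H1, H2A, H2B and H3 window and in 3 of 12 H4 windows (25.0%), against 37.4% of all windows. The Hist1h4h window above holds a TATAA match and none of the other 3 motifs. The octamer, the binding site of Oct-1, lay in 7 of 18 H2A windows and 6 of 16 H2B windows and in no H1, H3 or H4 window, against 1.74% of all windows. AAACACA, an element known from H1 promoters, lay in 4 of 5 H1 windows, 2 H2A windows and 2 H2B windows, against 7.18% of all windows. Windows of divergently transcribed neighbours overlap, so the same bases are counted for 2 genes in those cases. A match is a run of letters and was not tested for binding.

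**Figure D1:**
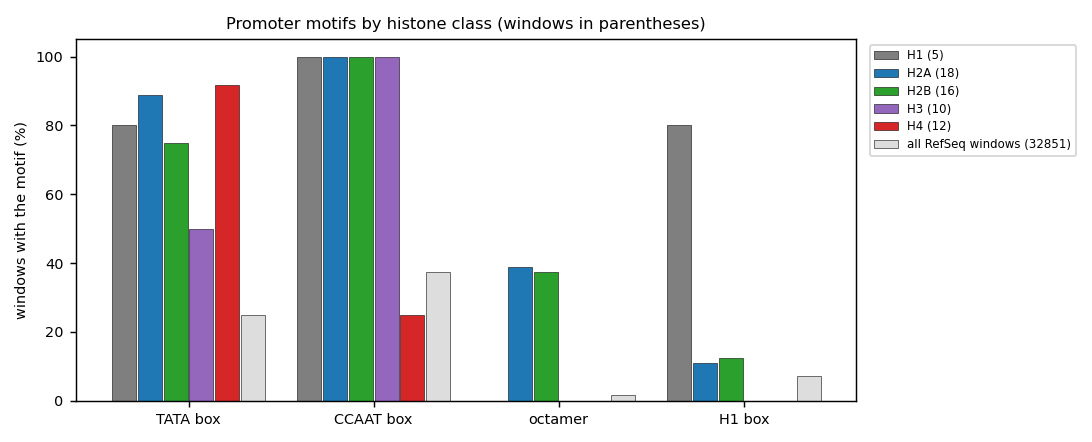
Share of promoter windows (%) that hold each motif, by histone class and over all 32851 RefSeq windows, with the number of windows in the legend. CCAAT reaches 100% in H1, H2A, H2B and H3 and 25.0% in H4, and the octamer is seen in H2A and H2B alone among the classes.

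Most of the genes were expressed, and many of them strongly. TPM is the abundance per base of transcript scaled to the same total in each library. It summed to 8885 over the 67 genes in replicate 1 and to 8704 in replicate 2. That was 0.888% ± 0.014 of mouse-gene TPM (SD, n = 2) and 1.99% ± 0.034 of the TPM of nuclear protein-coding genes. In both libraries 62 of 67 genes (92.5%) reached a TPM of 1, against 54.1% of all protein-coding genes. A TPM of 100 was reached in both by 33 of 67 (49.3%), against 3.01% of protein-coding genes. No single gene carried the set, since the median member stood at 99.7 TPM and the highest, Hist1h4h, ranked 85th among nuclear protein-coding genes. These values come from the first of 2 deposited quantifications, and the second is compared with it further below.

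**Figure D2:**
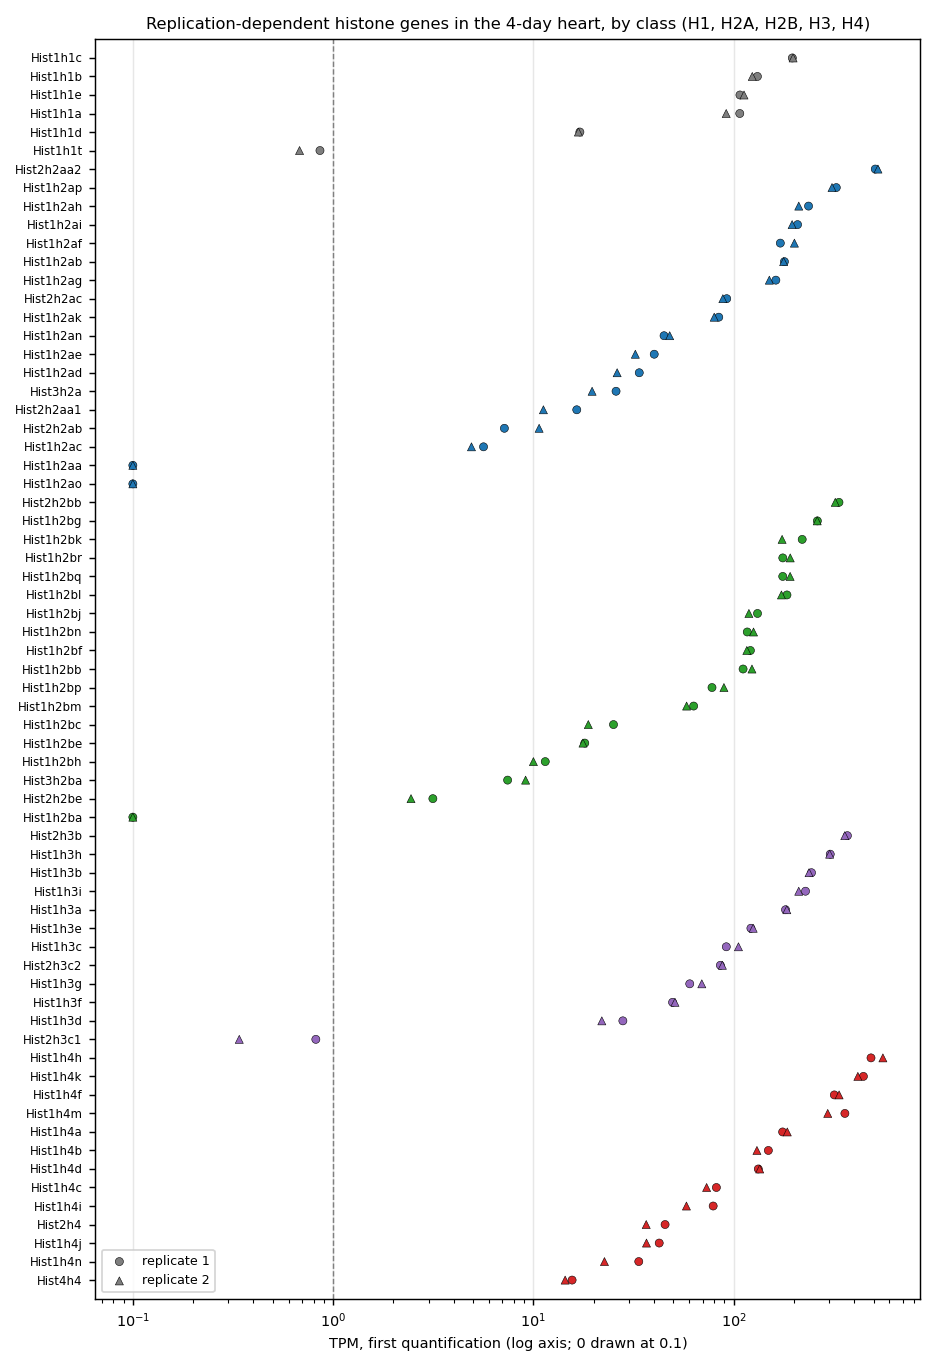
TPM of each of the 67 genes in the first quantification (log axis), ordered by mean within each class, with circles for replicate 1 and triangles for replicate 2. In both libraries 58 of the genes stand at 10 TPM or more, and 5 lie left of the dashed line at a TPM of 1.

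Linker histone H1 genes summed to 561 TPM in replicate 1 and 544 in replicate 2, 6.29% ± 0.043 of the TPM of the set. Hist1h1c (chr13:23738808-23740367, plus strand, mm10) was highest, with 197 TPM in replicate 1 and 198 in replicate 2, and it also had the most expected counts of all 67 genes (6976 and 8347). Hist1h1b followed with 132 and 124 TPM, Hist1h1e with 108 and 113, and Hist1h1a with 107 and 91.9. These 4 are somatic H1 genes, and all 4 were present at similar levels in both libraries. Hist1h1d, the fifth somatic gene of the list, had 17.1 and 16.8 TPM from 3039 and 3544 counts over an annotated transcript of 7425 bases. Hist1h1t, the testis-specific linker histone, had 0.86 and 0.68 TPM from 17 and 16 counts. Each of the 6 H1 proteins has its own sequence, between 209 and 223 residues long by translation of the annotated coding parts.

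H2A genes summed to 2146 TPM in replicate 1 and 2096 in replicate 2, 24.1% ± 0.052 of the set. Hist2h2aa2 (chr3:96239749-96240276, minus strand) had 510 and 526 TPM, Hist1h2ap 326 and 310, Hist1h2ah 237 and 212, Hist1h2ai 209 and 196, and Hist1h2af 171 and 201. These 5 encode 4 proteins. Hist1h2ap and Hist1h2ai share theirs with 7 other genes, and that 130-residue form summed to 974 ± 38.7 TPM over its 9 genes (SD, n = 2). The protein shared by Hist2h2aa1 and Hist2h2aa2 differs from it at 4 residues and summed to 532 ± 7.70 TPM. Hist1h2ah and Hist1h2ak, single-gene forms, averaged 224 and 82.2 TPM. At the low end stood Hist1h2ac, at 5.64 and 4.91 TPM, and Hist2h2ab, at 7.17 and 10.7. Hist1h2aa, a testis H2A gene, had 0 counts in both libraries, which allows up to 0.0952 CPM in replicate 1 and 0.0839 CPM in replicate 2, the level of 3 counts. The second quantification gave it 0 counts in replicate 1 and 4.02 in replicate 2 (1.52 TPM). Hist1h2ao was also given 0 counts, but 92.7% of its 100-base windows are shared with Hist1h2ap, and the upper bound of its deposited interval was 21.8 TPM in replicate 1 and 22.1 in replicate 2.

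H2B genes summed to 2044 TPM in replicate 1 and 2007 in replicate 2, 23.0% ± 0.037 of the set. Hist2h2bb had 336 and 322 TPM, Hist1h2bg 262 and 262, and Hist1h2bk 220 and 175. The nearly identical pair Hist1h2bq and Hist1h2br had 176 TPM each in replicate 1 and 192 each in replicate 2. That split is an allocation of shared reads: the deposited interval of Hist1h2bq ran from 21.6 to 319 TPM in replicate 1 and from 39.0 to 278 in replicate 2. Their sum was 352 TPM in replicate 1 and 384 in replicate 2. The commonest H2B protein is encoded by 6 genes that together held 913 ± 8.10 TPM. Lowest among the detected genes were Hist2h2be, with 3.15 and 2.45 TPM, and Hist3h2ba, with 7.44 and 9.15. Hist1h2ba, the testis H2B gene, had 0 counts in both libraries of the first quantification.

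H3 genes summed to 1769 TPM in replicate 1 and 1757 in replicate 2, 20.05% ± 0.20 of the set. Hist2h3b (chr3:96268654-96269141, plus strand) had 370 and 359 TPM, Hist1h3h 304 and 302, Hist1h3b 245 and 238, Hist1h3i 229 and 212, and Hist1h3a 182 and 185. Most of the class makes 2 proteins of 136 residues that differ at 1 residue. The form encoded by Hist1h3a, Hist1h3g, Hist1h3h and Hist1h3i, known as H3.1, held 771 ± 5.25 TPM, and the other 8 genes, whose form is known as H3.2, held 992 ± 2.67 (SD, n = 2). Of these, Hist2h3c1 also has a transcript annotated with a protein of 181 residues. Hist2h3c1 was the only H3 gene under a TPM of 1, with 0.82 and 0.34 TPM from 34.2 and 16.9 expected counts. All of its windows are shared with Gm20634, a gene annotated as a processed transcript, at 1.94 TPM in replicate 1 and 0.70 TPM in replicate 2. Its own 2 transcripts, of 1820 and 1825 bases, took the counts in turn, the shorter in replicate 1 and the longer, with the 181-residue protein, in replicate 2.

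H4 genes summed to 2366 TPM in replicate 1 and 2300 in replicate 2, 26.5% ± 0.14 of the set and the highest class total of the first quantification. All 13 encode the same 103-residue protein and all 13 were above a TPM of 1. Hist1h4h (chr13:23531050-23531519, plus strand) had 486 and 557 TPM, Hist1h4k 445 and 418, Hist1h4f 319 and 337, Hist1h4m 360 and 295, and Hist1h4a 176 and 186. Hist4h4, the single gene on chromosome 6, was lowest with 15.6 and 14.4 TPM, from 1049 and 1148 counts over an annotated transcript of 2863 bases.

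**Figure D3:**
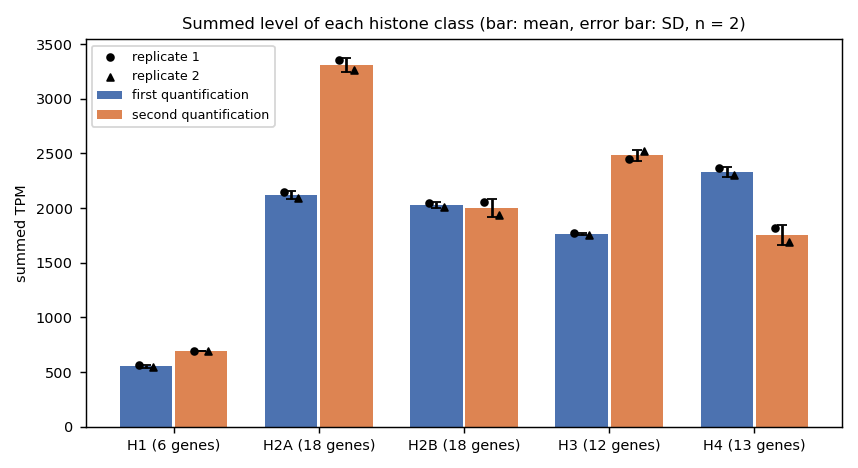
Summed TPM of each class in the first and second quantification (bars: mean, error bars: SD, points: replicate 1 and replicate 2). H4 is the highest class at 2333 in the first quantification, whereas H2A is highest at 3309 in the second.

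The Hist2h2aa1 and Hist2h2aa2 genes show how far the second deposited quantification, made from the same libraries with estimated counts per transcript, can differ. Against the 510 and 526 TPM of Hist2h2aa2 given above, Hist2h2aa1 stood at 16.5 and 11.2 in the first quantification. The second put Hist2h2aa2 at 0 in both libraries and Hist2h2aa1 at 861 and 877. Every 100-base window of Hist2h2aa2 occurs in Hist2h2aa1, so the sums were compared, at 532 TPM in the first and 869 in the second. In counts the order was the other way. The pair had 5511 in replicate 1 and 6662 in replicate 2 of the first, and 4668 and 5271 in the second. Gm20634, which holds 88.3% of the windows of Hist2h2aa1, was left out of these sums.

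Over all genes tested, 3.90% were over 2-fold higher in the first than in the second quantification in both libraries, and 8.65% were over 2-fold lower. Of the 12652 protein-coding genes tested, 58 were higher and 566 were lower. Of the 63 histone genes tested, 13 were higher (20.6%) and 13 were lower (20.6%). The median log2 ratio of first over second was -0.04 for the histone genes and -0.44 for all protein-coding genes tested, and after centring on the median of protein-coding genes 16 histone genes were higher and 6 lower. Of the histone genes higher in the first quantification, 8 were H4 genes, 4 were H2B genes and 1 was Hist2h2aa2. None of the 13 H4 genes was over 2-fold lower, while 6 H2B, 4 H3 and 3 H2A genes were. In total counts the set held 103534 in replicate 1 and 119872 in replicate 2 of the first quantification, and 66670 and 75628 in the second.

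The H4 genes were the most divided. Hist1h4d (chr13:23581598-23582735, plus strand) had 133 TPM in replicate 1 and 135 in replicate 2 of the first quantification, and 3.48 and 1.06 in the second. In counts that was 3354 and 4044 in the first and 61 and 21 in the second. Hist1h4d shares no 100-base window with another gene, a measure that leaves out shorter shared stretches. Hist2h4, which also shares no such window, had 1692 and 1616 counts in the first and 39 and 10 in the second. The part of shared sequence in these counts was not tested. Hist1h4f had 319 and 337 TPM in the first and 11.8 and 0 in the second, and Hist1h4k had 445 and 418 in the first and 11.1 and 0.52 in the second. The 6 H4 genes whose annotated leader before the start codon is under 10 bases (Hist1h4b, Hist1h4c, Hist1h4d, Hist1h4f, Hist1h4k and Hist2h4) summed to 1152 ± 30.6 TPM in the first and 32.8 ± 38.7 in the second. The other 7 summed to 1181 ± 15.9 in the first and 1718 ± 52.4 in the second. The limit of 10 bases was chosen after these values were seen.

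The split by leader was smaller in the other classes and turned round in H2A. All 6 short-leader H4 genes were over 2-fold higher in the first quantification, with a median log2 ratio of 5.88, against 2 of 7 other H4 genes with a median of 0.61. Among H3 genes the median was 0.29 for the 3 with a short leader and -0.84 for the 8 others. Among H2B genes it was 0.66 for 5 with a short leader and -0.27 for 13 others. Among H2A genes it was -0.27 for 5 with a short leader and 0.17 for 11 others. RefSeq starts the transcript upstream of the GENCODE start in 19 of the 20 short-leader genes with a window, by a median of 30.5 bases, and by a median of 0 bases in the 41 others. Transcript length was read as well. Pooled over classes, the median log2 ratio was 0.60 for the 17 genes whose longest transcript is under 450 bases. For the 46 longer ones it was -0.37. The medians of the shorter and the longer genes were -0.02 and -0.09 in H2A and 1.04 and -0.32 in H2B. In H3 they were 0.17 and -0.61, and in H4 they were 4.50 and 1.11. The deposited effective lengths also differ. For Hist2h2bb, with 381 bases, the effective length was 282 bases in the first quantification, and in the second it was 95.5 in replicate 1 and 101 in replicate 2. For Hist1h4k, with 312 bases, it was 213 in the first, and 69.6 and 76.7 in the second. A shorter effective length gives a higher TPM for the same counts, yet both genes had fewer counts in the second. Hist2h2bb had 2302 and 2617 counts in the first and 305 and 266 in the second. Hist1h4k had 2303 and 2563 counts in the first and 17 and 1 in the second. Whether leader or length sets these differences was not tested.

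Several H2A and H2B genes were given more by the second quantification. Hist1h2ad had 33.8 TPM in replicate 1 and 26.2 in replicate 2 of the first quantification, and 777 and 714 in the second. Hist1h2ae had 40.2 and 32.3 in the first and 219 and 288 in the second. Hist1h2be had 18.1 and 17.7 in the first and 91.8 and 92.9 in the second, and 12.1% of its windows are shared with other genes, Hist1h1e first among them. Hist1h2ba was given 0 in both libraries of the first, and 0 in replicate 1 and 42.7 in replicate 2 of the second. In the direction of the H4 genes, Hist1h2bl had 185 and 173 TPM in the first and 35.9 and 24.3 in the second. Hist1h2bq and Hist1h2br, at 352 and 384 TPM together in the first, summed to 0.747 and 0.616 in the second. The level of each of these genes depends on which quantification is read.

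**Figure D4:**
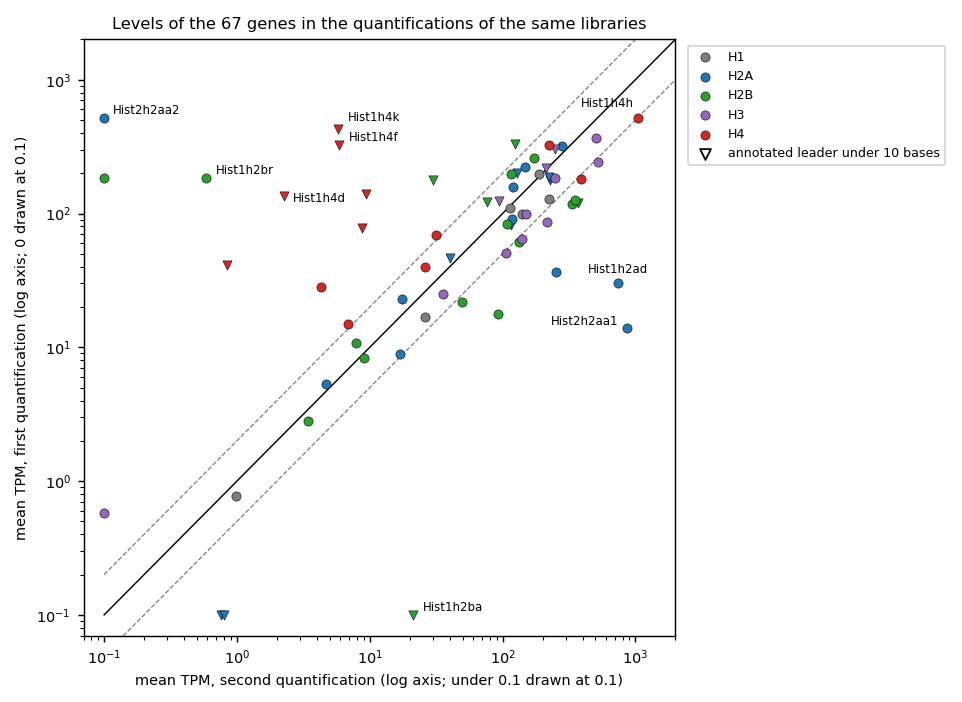
Mean TPM of each gene in the second (horizontal) and first (vertical) quantification, both on log axes, with the solid line at equality and dashed lines at 2-fold. Triangles are genes with an annotated leader under 10 bases. Hist1h4d, Hist1h4f and Hist1h4k lie far above the line, while Hist2h2aa1 and Hist1h2ad lie far below it.

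Genes with little shared sequence were set apart, by a limit chosen after the values were seen. The 16 genes with under 10% of their windows in common with another gene summed to 838 TPM in replicate 1 and 802 in replicate 2 of the first quantification, and to 887 and 876 in the second. Over the 14 of these that were tested, 3 were higher in the first (Hist1h4d, Hist2h4 and Hist4h4) and 1 was lower (Hist1h2bm). Among them are all the H1 genes except Hist1h1e. Hist1h1c averaged 197 ± 1.22 TPM in the first and 189 ± 1.18 in the second (SD, n = 2). The others detected were less close. Hist1h1b averaged 128 TPM in the first and 223 in the second, Hist1h1a 99.7 and 139, and Hist1h1d 16.9 and 26.1. Over the 5 H1 genes tested, Hist1h1e included, the median log2 ratio of first over second was -0.49.

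Most H2A and H2B genes sit head to head. A divergent partner lay within 1000 bases for 12 H2A and H2B pairs, with 175 to 305 bases between their annotated starts, and the Hist1h2bg window printed above spans 1 of these intervals, shared with Hist1h2ae. Some pairs had close levels and others did not. Hist1h2ah and Hist1h2bk averaged 224 and 197 TPM in the first quantification. The testis genes Hist1h2aa and Hist1h2ba were both at 0 there, which says nothing of a shared level. In the second they averaged 0.76 and 21.3 TPM, from replicate 2 alone. In the first quantification 5 of 12 pairs were over 2-fold apart and the H2A gene was the higher in 5. In the second quantification 9 of 12 were over 2-fold apart and the H2A gene was the higher in 8. The order held in both quantifications for 6 pairs, 4 with H2A higher and 2 with H2B higher. These counts include genes whose level is an allocation of shared reads. Hist1h2br averaged 184 TPM in the first and 0.59 in the second, beside Hist1h2ap at 318 and 279. Hist1h2ao and Hist1h2bq averaged 0 and 184 TPM in the first, and 0.80 and 0.09 in the second. Hist2h2ac and Hist2h2be were the widest apart in the first quantification of the pairs with both genes detected, with 90.4 TPM for Hist2h2ac and 2.80 for Hist2h2be there and 118 and 3.41 in the second. The only such pair of other classes was Hist1h3f with Hist1h2bh, at 50.3 and 10.7 TPM.

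Differences of the histone genes between the libraries were counted in the first quantification, beside those of all filtered genes. Expected counts were scaled by TMM and compared as log2 of replicate 1 over replicate 2, so a value below 0 means lower in replicate 1. Of 64 genes that passed the count filter, 1 was over 2-fold higher in replicate 1, against 2.22% of the 16271 filtered genes, and 0 were over 2-fold lower, against 0.842%. The 1 was Hist2h3c1, with its 34.2 and 16.9 counts. At 1.5-fold, Hist2h3c1 was again the only one higher (8.09% of all filtered genes) and Hist2h2ab, with 60.1 counts in replicate 1 and 106 in replicate 2, the only one lower (4.22%). The median log2 ratio was -0.06 for the set, with 22 genes higher and 42 lower in replicate 1, and 0.003 for all filtered genes. On estimated counts of the second quantification 4 of 56 filtered histone genes (7.14%) were past 2-fold either way, against 3.36% of all 17638 filtered genes. Among them was Hist1h4a, with 1122 counts in replicate 1 and 2646 in replicate 2. In the first quantification the direction depends on the scaling: the set's median was -0.12 with spike-in scaling, 0.002 with library totals and 0.07 on the log2(TPM + 0.1) scale, where 42 genes were higher and 22 lower. The median of all filtered genes moved with it, to -0.05, 0.07 and 0.13. The median size of the difference under TMM, without sign, was 0.16 for the set and 0.19 for all filtered genes. For filtered protein-coding genes it was 0.17, close to that of the set.

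By class the medians under TMM were -0.07 for H1, -0.05 for H2A, -0.07 for H2B, -0.14 for H3 and 0.03 for H4. H3 had 2 genes higher and 10 lower in replicate 1, and H4 had 7 higher and 6 lower. On the log2(TPM + 0.1) scale the medians of H1, H2A and H2B turned positive (0.05, 0.08 and 0.06), H3 stood at -0.01 and H4 at 0.16. Under TMM, genes with over 300 annotated bases after the stop codon had 11 higher and 11 lower, with a median of 0.01, and those with 300 or fewer had 11 higher and 31 lower, with a median of -0.07. That limit was set with the values known. Hist1h4h, the highest gene, was lower in replicate 1 by a log2 ratio of -0.33. The genes with over 300 bases went both ways. Hist1h2bc and Hist3h2a stood at 0.29 and 0.27, and Hist1h1e and Hist1h4d at -0.20 and -0.15. With 2 libraries no test of these ratios is possible.

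**Figure D5:**
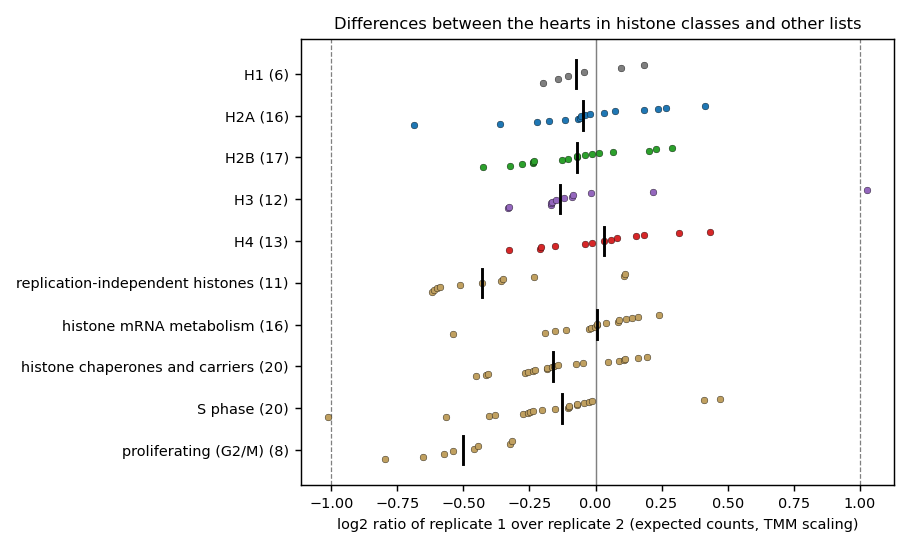
Log2 ratio of replicate 1 over replicate 2 under TMM for each filtered gene, by histone class and for 5 other gene lists, with the median as a black bar, the number of genes in parentheses and dashed lines at 2-fold. The medians of the replication-dependent classes run from -0.14 (H3) to 0.03 (H4). Among the lists, replication-independent histones have a median of -0.43 and G2/M genes of -0.50. Chaperones stand at -0.16, S phase genes at -0.13 and histone mRNA genes at 0.01. On the log2(TPM + 0.1) scale the medians of H1, H2A, H2B and S phase genes turn positive. Those of replication-independent histones (-0.30), G2/M genes (-0.36), chaperones (-0.02) and H3 (-0.01) stay negative. H4 and histone mRNA genes stay positive.

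Replication-independent histones, here a list of variants whose making is not confined to S phase, were set beside them. Summed over 13 genes they had 920 TPM in replicate 1 and 1113 in replicate 2, so the replication-dependent genes held 9.66 times as much TPM in replicate 1 and 7.82 times in replicate 2. In expected counts, which are not divided by length, the ratio was 4.19 in replicate 1 and 3.33 in replicate 2. H3f3a, which encodes H3.3, led with 367 TPM in replicate 1 and 423 in replicate 2, followed by H3f3b, its second gene, with 147 and 196, H2afz, which encodes H2A.Z, with 98.8 and 129, and H1f0, the linker histone of resting cells, with 89.4 and 110. The germ cell linker histones H1foo and H1fnt had 0 counts. Of 11 filtered genes, 9 were lower in replicate 1, with a median log2 ratio of -0.43. On the log2(TPM + 0.1) scale the count was again 9 of 11 and the median -0.30.

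The machinery that makes and ends histone mRNA was present at modest levels. Of 17 matched genes 16 reached a TPM of 1 in both libraries, and the list had a median of 7.77 TPM. Sympk, a scaffold of the cleavage complex, had 26.6 TPM in replicate 1 and 24.0 in replicate 2, the S phase kinase Cdk2 had 24.8 and 24.9, Upf1, needed for histone mRNA decay, had 23.5 and 19.3, and the endonuclease Cpsf3 had 20.8 and 17.8. Slbp, the stem-loop binding protein, had 19.9 and 17.4, and Npat, the coactivator of histone genes, had 7.84 and 7.04. Zfp473, the zinc finger protein of the U7 complex, had 0.24 and 0.08. The median log2 ratio of 16 filtered genes was 0.01 under TMM, with 9 higher and 7 lower in replicate 1.

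Histone chaperones and carriers were all expressed, 20 of 20, with a median of 29.2 TPM. Rbbp7, which presents H4 to the acetyltransferase Hat1, had 99.3 TPM in replicate 1 and 108 in replicate 2, Nap1l4, an H2A and H2B chaperone, 88.5 and 85.2, Rbbp4, of the CAF-1 complex, 76.5 and 83.6, and Anp32e, which removes H2A.Z, 55.0 and 72.2. Their median log2 ratio was -0.16 under TMM, with 14 of 20 lower in replicate 1, and -0.02 on the log2(TPM + 0.1) scale, with 11 of 20 lower.

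Genes of S phase and of division were read beside the histones. All 20 S phase genes were expressed, led by the replication clamp Pcna with 64.4 TPM in replicate 1 and 77.3 in replicate 2, the ribonucleotide reductase subunits Rrm2 with 39.6 and 69.9 and Rrm1 with 32.7 and 42.4, and the helicase subunit Mcm2 with 38.5 and 36.1. Their median log2 ratio was -0.13 under TMM, with 18 of 20 lower in replicate 1, but 0.06 on the log2(TPM + 0.1) scale, with 9 of 20 lower. The 8 G2/M marker genes summed to 212 TPM in replicate 1 and 276 in replicate 2, all 8 lower in replicate 1, with a median of -0.50 under TMM and -0.36 on the log2(TPM + 0.1) scale.

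Cell type markers describe what else differed between the libraries. Cardiomyocyte markers were abundant, at 30895 TPM over 6 genes in replicate 1 and 28796 in replicate 2, which goes with the labelled tissue. Erythroid markers summed to 1409 TPM in replicate 1 and 5293 in replicate 2, with 7 of 7 filtered genes lower in replicate 1 under TMM and 5 of 7 on the log2(TPM + 0.1) scale. Fibroblast markers were lower in replicate 1 in 6 of 6 on both scales, at 1184 and 1610 TPM. Endothelial markers stood at 485 and 420 TPM, and macrophage markers at 35.0 and 31.3. Under TMM 4 of 6 of each were lower in replicate 1, with medians of -0.05 for endothelial and -0.10 for macrophage markers. On the log2(TPM + 0.1) scale 1 of 6 endothelial and 2 of 6 macrophage markers were lower, with medians of 0.13 and 0.15. The part of these cell types in the histone values was not tested. Of 6 male germ cell markers, Prm1, Prm2, Tnp1, Tnp2 and Acrv1 had 0 counts and Ddx4 had 2 counts in replicate 1 and 12 in replicate 2.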

How the data were processed

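Total RNA-seq of 2 heart libraries was analysed, replicate 1 with 31512596 gene counts and replicate 2 with 35744013, spike-ins left out. Per the notes deposited beside the files, reads were assigned to mm10 and GENCODE M21, and the aligner, its settings and versions are not given in the sources used here. Per the file headers, the first quantification holds expected counts and TPM per gene and transcript, as deposited by the authors, with posterior means and TPM intervals of unstated level. The second holds estimated counts and TPM per transcript, as deposited, which were summed here per gene.

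The histone genes, the comparison lists and the marker lists were chosen with earlier results of these data known. The limits on leader, transcript length, bases after the stop codon and shared windows were set after values were seen. Genes named are the 5 highest of each class, those under a TPM of 1, those past 1.5-fold between replicates, the 5 most different each way between quantifications, genes whose leading transcript holds under 90% of TPM, and of each list the 4 highest and those under a TPM of 1. Other genes named were chosen after their values were seen.

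Quantifications were compared as log2 of first over second with 0.1 added to TPM, over genes with a mean TPM of 1 or more in either. A gene counted as different when past 2-fold the same way in both libraries. Replicates were compared on rounded expected counts with TMM scaling, a filter on low counts and a prior count of 2 in edgeR 4.0.16 and R 4.3.3. DESeq2 1.42.0 size factors, library totals and 33 spike-ins were alternatives. The scaling step was tested on simulated data with 200 changed genes. Shared sequence is the share of 100-base windows of a gene's transcripts found in another gene. Sequences came from GENCODE M21 and RefSeq, read with Biopython 1.88 under Python 3.11.15, pandas 2.3.3 and NumPy 2.4.6, and figures were drawn with matplotlib 3.10.9. Floors of 3 counts cover counting error only. No p-values were computed, since 1 group has no contrast.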

Additional observations from a re-analysis of the deposited data

Results flagged for a closer look

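Signal also appeared in genes of the same symbols that have no coding transcript, above a floor of 3 counts. Hist1h2al, a processed pseudogene model of 339 bases, averaged 705 expected counts, with 634 in replicate 1 and 777 in replicate 2 (109 and 112 TPM), and was at 0 in both libraries of the second quantification. Hist3h2bb-ps, a processed pseudogene, averaged 61.1 expected counts, with 41.9 in replicate 1 and 80.3 in replicate 2 (4.71 and 7.61 TPM), and had 10.8 and 16.2 TPM in the second quantification.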

How the results depend on the processing

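Of 61 alternatives over 12 results, 40 left it within 1.5 times for a count or within the spread between replicates for a value, or kept its direction for the median ratio, 18 moved it further and 3 turned its direction. The histone share of mouse-gene TPM, 0.888%, was 0.332% of expected counts, 1.03% in the second quantification, 1.99% of nuclear protein-coding TPM and 0.866% by posterior means, and 0.878% to 0.897% with 1 library left out. The median log2 ratio between replicates, -0.06, turned to 0.0024 with library totals and to 0.07 on the scales log2(TPM + 0.1) (0.0674) and log2(TPM + 1) (0.0670). The number of genes past 2-fold between replicates, 1, was 0 with spike-in scaling and 4 on estimated counts of the second quantification (Hist1h4c, Hist1h4d, Hist1h2br and Hist1h4a), where 3.36% of all filtered genes were. Genes over 2-fold lower in the first quantification, 13, fell to 6 after centring. Class shares in the second quantification were 6.76% for H1, 32.3% for H2A, 19.5% for H2B, 24.3% for H3 and 17.1% for H4. In expected counts they were 18.1% for H1, 19.9% for H2A, 18.6% for H2B and 23.3% for H4. With 1 library left out they ran from 6.26% to 6.32% for H1, 24.1% to 24.2% for H2A, 23.0% to 23.1% for H2B, 19.9% to 20.2% for H3 and 26.4% to 26.6% for H4. The ratio to replication-independent histones, 8.74, was 6.64 in the second quantification and 3.76 in expected counts, and 7.82 to 9.66 with 1 library left out. Genes expressed, 62, ranged from 56 to 64. The causes were not tested. No paired analysis was possible because there is 1 group.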
